A study of Mus musculus with 6 samples.

Results

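The Dppa (developmental pluripotency associated) genes Dppa2, Dppa3, Dppa4 and Dppa5a were taken by symbol from the deposited gene tables, as 4 of 55536 Ensembl genes listed. All 4 were among the 14661 genes tested, and each had passed the filter on low values, a mean of at least 1 FPKM, in both groups. FPKM counts sequenced fragments per length of transcript and per size of library. The study compared RNA from mouse embryonic stem cells of strain C57BL/6 that were wild type (WT, 3 libraries) or Max-/- (labelled Max-KO, 3 libraries). Max is the partner with which MYC proteins bind DNA and also belongs to PRC1.6, a Polycomb repressor complex. RNA was extracted with Trizol, and libraries made with a TruSeq kit were sequenced on a NovaSeq6000. The labels used here state no treatment, medium or clone for either group, and they do not say whether the libraries of a group are separate cultures. The p-values therefore measure only the spread between these libraries, which may be technical.

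DPPA2 and DPPA4 are related nuclear proteins with a SAP domain that bind DNA as a pair. In mouse embryonic stem cells they are known as activators of Dux and of other genes of the 2-cell-like state, and they keep the promoters of a set of developmental and germline genes free of DNA methylation. DPPA3, also called Stella or PGC7, is a maternal and primordial germ cell protein that holds UHRF1 away from chromatin and so limits maintenance of DNA methylation. DPPA5A, also called ESG1, is a protein of the KH-domain family, whose members bind RNA or belong to the subcortical maternal complex of the egg. The common name therefore joins 3 unrelated kinds of protein, all active in the early embryo, germ cells and pluripotent cells.

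Several Dppa genes have close copies in the genome, and the sequences that separate them bear on whether reads can be placed. Dppa5a has the unprocessed pseudogenes Dppa5b and Dppa5c on the same chromosome, and the transcripts of Dppa5a and Dppa5c were identical at 97% of 297 aligned bases. The following 90 bases of coding exon 2 of Dppa5a (GRCm38, chr9:78367766-78367855, minus strand) and the same stretch of Dppa5c (chr9:78272242-78272331, plus strand) hold 5 of their 9 differences, with capitals at the bases that differ.
Dppa5a: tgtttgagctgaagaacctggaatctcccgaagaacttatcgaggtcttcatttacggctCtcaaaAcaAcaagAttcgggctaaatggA
Dppa5c: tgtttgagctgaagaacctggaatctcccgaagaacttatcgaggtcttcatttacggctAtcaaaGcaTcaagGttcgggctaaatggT
Counted from the A of the Dppa5a start codon, these differences were C224A, A230G, A233T, A238G and A253T. Dppa5b and Dppa5c were identical to each other over all 348 bases of their transcripts, so no read could tell these copies apart. The longest run without a difference between Dppa5a and Dppa5c was 104 bases.

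Dppa3 has a processed copy on chromosome X, Dppa3-ps, which matched it at 98.2% of 451 aligned bases. The stretch below is shown because it holds 3 of the 8 differences. In Dppa3 it joins the end of exon 1 (GRCm38, chr6:122626599-122626610) to exon 2 (chr6:122628577-122628654), both coding and on the plus strand, and in Dppa3-ps it is a single block (chrX:37625934-37626023, minus strand).
Dppa3: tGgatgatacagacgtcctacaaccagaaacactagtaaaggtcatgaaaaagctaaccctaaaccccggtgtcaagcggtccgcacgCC
Dppa3-ps: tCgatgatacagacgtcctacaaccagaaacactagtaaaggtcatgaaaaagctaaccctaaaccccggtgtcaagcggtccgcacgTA
Counted from the A of the Dppa3 start codon, the capitals mark G78C, C165T and C166A.

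Dppa4 and Dppa2 are paralogs rather than copies. Their transcripts could be aligned over only 191 bases, with 70.7% identity and no identical run longer than 11 bases, so no aligned stretch of read length was identical. The longest ungapped stretch lies in the coding sequence of both genes on the plus strand of chromosome 16. It spans exons 6 and 7 of Dppa4 (GRCm38, chr16:48293028-48293106 and chr16:48293699-48293706) and exons 7 and 8 of Dppa2 (chr16:48317405-48317483 and chr16:48318633-48318640). The 28 differing bases among its 87 are in capitals.
Dppa4: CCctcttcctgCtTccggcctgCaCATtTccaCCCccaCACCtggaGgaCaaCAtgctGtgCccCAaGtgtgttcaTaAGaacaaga
Dppa2: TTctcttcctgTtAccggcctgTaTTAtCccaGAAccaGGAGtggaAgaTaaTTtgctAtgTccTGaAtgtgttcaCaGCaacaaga

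Transcript levels of all 4 genes differed between the groups, in opposite directions. Dppa5a, Dppa2 and Dppa4 were higher in the libraries labelled Max-KO, by 1.6-fold, 1.46-fold and 1.27-fold, and Dppa3 was lower, at 0.347 of its WT level. The 3 libraries of 1 group did not overlap those of the other for any of the 4 genes. This was common in these data: groups did not overlap for 72% of all tested genes, 43% were called higher in Max-KO and 23.2% were called lower. A call is a Benjamini-Hochberg adjusted p under 0.05 over all tested genes in limma, a linear model with moderated variances. The median log2 difference of all tested genes was 0.21 on the log2(FPKM + 1) scale used throughout, and differences are also given relative to it.

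**Figure D1:**
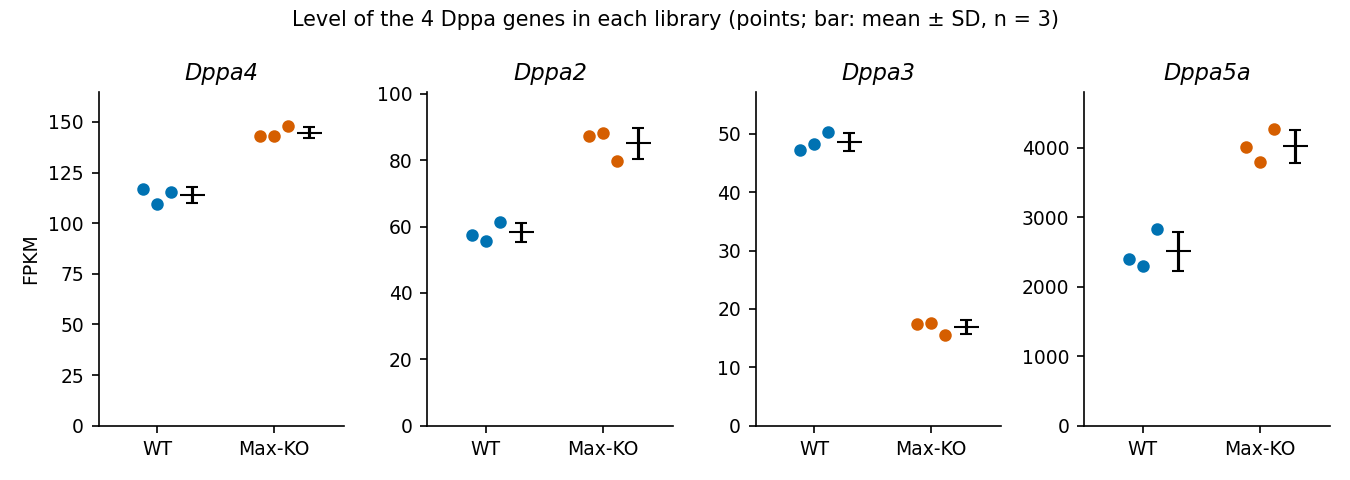
FPKM of Dppa4, Dppa2, Dppa3 and Dppa5a in each of the 3 WT and 3 Max-KO libraries (points), with the mean and SD of each group beside them; every vertical axis starts at 0 and has its own range. Dppa4, Dppa2 and Dppa5a lie higher in all Max-KO libraries than in any WT library, and Dppa3 lies lower.

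Dppa4 (ENSMUSG00000058550; GRCm38, chr16:48283733-48294237, plus strand) encodes one partner of the DNA-binding pair. Its FPKM was 117.03, 109.6 and 115.28 in WT libraries 1, 2 and 3, and 143.07, 143 and 147.86 in the Max-KO libraries. All Max-KO values lay above all WT values, with a gap wider than the range within either group. The mean went from 114 ± 3.88 to 145 ± 2.79 FPKM (SD, n = 3), a log2 difference of 0.34 ± 0.05 (SE; 95% interval 0.23 to 0.46; limma adjusted p = 7.58e-04). Relative to all genes it was 0.13, and 57.3% of tested genes had a lower difference than Dppa4. The rise of Dppa4 depended on the scaling of the libraries: under median-ratio scaling it was 0.09 and no longer passed the test (limma adjusted p = 0.245), and with TPM it was 0.57.

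Dppa2 (ENSMUSG00000072419; GRCm38, chr16:48303908-48319723, plus strand), which encodes the other partner, starts downstream of Dppa4 with 9.7 kb between the genes. Its FPKM was 57.5, 55.75 and 61.44 in WT libraries 1, 2 and 3, and 87.29, 88.13 and 79.75 in the Max-KO libraries. The lowest Max-KO library, number 3, was still well above the highest WT library. The mean rose from 58.2 ± 2.91 to 85.1 ± 4.61 FPKM (SD, n = 3), a log2 difference of 0.54 ± 0.06 (SE; 95% interval 0.39 to 0.69; limma adjusted p = 3.07e-04), or 0.33 relative to all genes. Under median-ratio scaling the Dppa2 difference was 0.29 and kept its call (limma adjusted p = 0.0122).

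A ratio of 2 genes within a library does not depend on the scaling of that library. Dppa4 FPKM was 2.04, 1.97 and 1.88 times that of Dppa2 in WT libraries 1, 2 and 3, and 1.64, 1.62 and 1.85 times in the Max-KO libraries. The groups did not overlap, but Max-KO library 3 lay close to WT library 3. The log2 ratio was taken after adding 1 FPKM to each gene, which leaves some dependence on the scaling. Its mean was 0.96 ± 0.06 in WT libraries and 0.76 ± 0.11 in Max-KO libraries (SD, n = 3). The difference was -0.2, with p = 0.1 in a 2-sided exact permutation test. That is the smallest p that 3 against 3 libraries allow, and the same test gave 0.1 for each of the 4 genes alone.

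Dppa3 (ENSMUSG00000046323; GRCm38, chr6:122626410-122630272, plus strand) was the only one of the 4 genes to fall. Its FPKM was 47.14, 48.25 and 50.22 in WT libraries 1, 2 and 3, and 17.4, 17.67 and 15.49 in the Max-KO libraries. The groups were far apart, with every Max-KO library well below the lowest WT library. The mean fell from 48.5 ± 1.56 to 16.9 ± 1.19 FPKM (SD, n = 3), a log2 difference of -1.47 ± 0.07 (SE; 95% interval -1.64 to -1.31; limma adjusted p = 6.79e-06). Relative to all genes the difference was -1.68, and 247 of the 14661 tested genes fell further. The estimated fragments behind these values, read from the whole-number steps of low FPKM values, were 212 to 668 per library.

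Among the 4 genes the fall of Dppa3 was the largest change in size, and its distance from the other members widened. In WT libraries Dppa2 was close to Dppa3 in FPKM, with ratios of 1.22, 1.16 and 1.22. In Max-KO libraries Dppa2 was higher by ratios of 5.02, 4.99 and 5.15. Dppa3 ranked 2155 to 2271 among all listed genes by FPKM in WT and 5660 to 6155 in Max-KO. In bulk RNA, fewer cells with Dppa3 transcripts and less Dppa3 RNA per cell cannot be told apart.

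Dppa5a (ENSMUSG00000060461; GRCm38, chr9:78367052-78368177, minus strand) was by far the most abundant of the 4. Its FPKM was 2400.01, 2300.96 and 2829.62 in WT libraries 1, 2 and 3, and 4004.61, 3793.5 and 4262.04 in the Max-KO libraries. WT library 3 stood above the other two WT libraries but below every Max-KO library. The mean rose from 2510 ± 281 to 4020 ± 235 FPKM (SD, n = 3), a log2 difference of 0.68 ± 0.09 (SE; 95% interval 0.47 to 0.90; limma adjusted p = 5.48e-04), or 0.48 relative to all genes. The call held under the other scalings, but the size did not: the Dppa5a difference was 0.43 under median-ratio scaling, whereas quantile normalization gave 1.22.

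Dppa5a ranked 40 to 48 among all listed genes by FPKM in WT libraries and 7 in each Max-KO library. Its share of the summed FPKM of a library went from 0.332% ± 0.0303 to 0.617% ± 0.0326 (SD, n = 3). By FPKM, which is per length, the order in every library of both groups was Dppa5a, Dppa4, Dppa2 and then Dppa3, and neighbours in this order did not overlap within a group. Dppa5a alone made up 91.5% to 92.6% of the FPKM of the 4 genes in WT and 93.8% to 94.6% in Max-KO. Next to Dppa4, its FPKM ratio was 20.5, 21 and 24.5 in WT and 28, 26.5 and 28.8 in Max-KO, without overlap. Next to Dppa2 the ratio was 41.7, 41.3 and 46.1 in WT and 45.9, 43 and 53.4 in Max-KO, so that these groups overlapped.

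**Figure D2:**
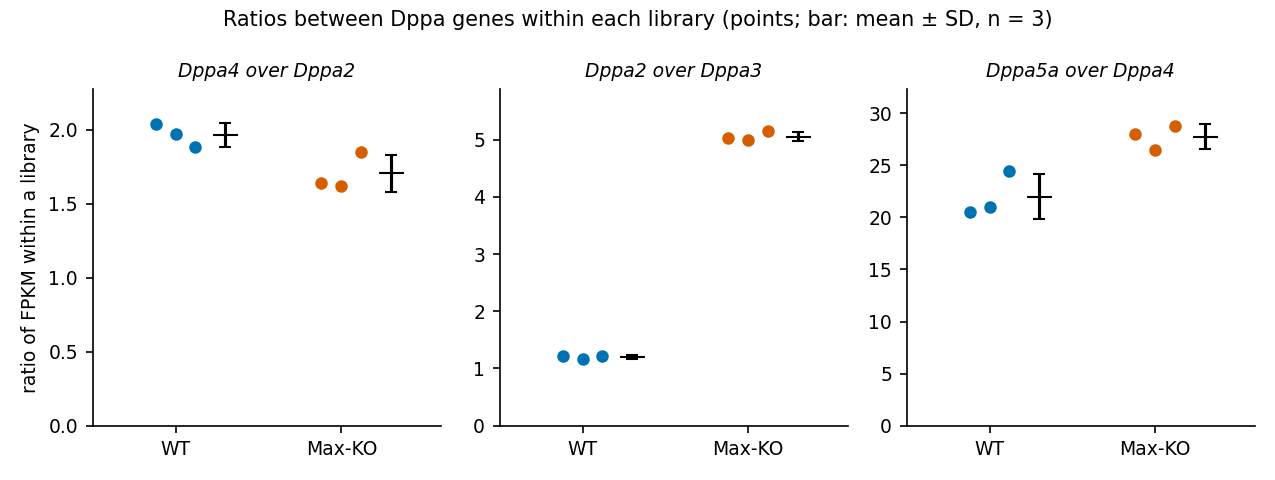
Ratio of the FPKM of 2 Dppa genes within each library (points), with the mean and SD of the 3 WT and 3 Max-KO libraries; every vertical axis starts at 0. The ratio of Dppa2 to Dppa3 goes from 1.2 in WT to 5.05 in Max-KO on average, that of Dppa4 to Dppa2 from 1.96 to 1.71, and that of Dppa5a to Dppa4 from 22 to 27.8.

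Of the 4 differences only that of Dppa4 lost its call under another scaling of the libraries, which was median-ratio scaling (0.09). Summed FPKM was 743406 to 774405 in WT and 645169 to 658361 in Max-KO libraries, while 12587 to 12847 genes reached 1 FPKM in WT and 14108 to 14226 in Max-KO. Rescaling to TPM moved the median difference of all genes to 0.43, median-ratio scaling moved it to -0.01 and quantile normalization to -0.02. Of all calls, 64.9% were higher in Max-KO as reported, and 77.7%, 47.5% and 46.7% in the same order of scalings. Relative to the median of all genes under the same scaling, Dppa4 was 0.15, 0.10 and 0.51, Dppa2 was 0.34, 0.30 and 0.59, Dppa3 was -1.69, -1.71 and -1.58, and Dppa5a was 0.49, 0.44 and 1.23.

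**Figure D3:**
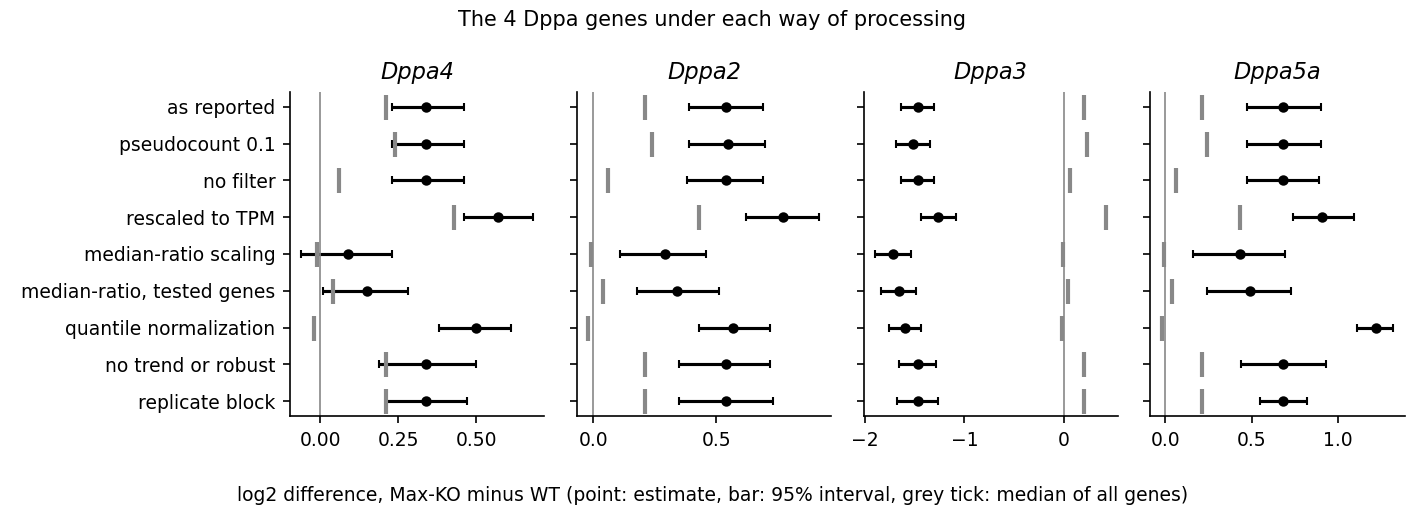
Log2 difference (Max-KO minus WT) of each Dppa gene under 9 ways of processing, with 95% intervals (bars) and the median of all tested genes under the same processing (grey ticks); each panel has its own horizontal range. The Dppa4 interval includes 0 under median-ratio scaling, where the estimate is 0.09, and the other 3 genes stay on 1 side of 0 in every row.

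Other genes carrying the Dppa name were listed at lower levels than most of the 4 genes. Dppa1 was listed at 0 in 5 libraries and at 0.13 FPKM in Max-KO library 1, and Dppa3-ps was listed at 0 in all 6. Dppa5c was listed at 9.67, 8.58 and 9.26 FPKM in WT and at 18.25, 14.79 and 16.92 in Max-KO, a log2 difference of 0.79 ± 0.10 (SE; limma adjusted p = 3.44e-04), in the same direction as Dppa5a. Its values rested on an estimated 16 to 40 fragments per library, and given the shared sequence printed above, the Dppa5c value is uncertain. Dppa5b, identical to it, was listed at 0, 1.32 and 1.27 FPKM in WT and 1.73, 1.29 and 2.39 in Max-KO, with overlapping groups (limma adjusted p = 0.128). Since the transcripts of Dppa5b and Dppa5c are identical, the split of FPKM between them and their separate tests are uncertain.

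Shared sequence touched each member to a different degree. Of all 75-base windows of the transcript, 23.7% for Dppa4, 25.7% for Dppa2, 4.08% for Dppa3 and 19.4% for Dppa5a (the longest annotated coding transcript of each) also occur in a transcript of another annotated gene. Most of the other genes were pseudogenes, and 1 was the protein-coding gene Pigp, which shares 4.04% of the Dppa5a windows and was listed at 11.6 ± 0.144 FPKM in WT and at 28.9 ± 2.46 FPKM in Max-KO libraries (SD, n = 3). The pseudogenes together were listed at no more than 0.499% of the FPKM of the member they resemble, in any library. With their FPKM added to the member, the log2 differences were 0.34 for Dppa4, 0.54 for Dppa2, -1.47 for Dppa3 and 0.68 for Dppa5a. Additions this small could hardly move these values, so they do not check how reads of shared sequence were assigned. The sources used here do not say how the authors' counting assigned such reads or whether it used strand.

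Genes next to the Dppa genes were read from the same test, in which 43% of all tested genes were called higher and 23.2% lower. Within 250 kb of Dppa4 and Dppa2, 1 of 2 neighbouring protein-coding genes had a mean of at least 1 FPKM in both groups, the condition for a neighbour to be described here. It was Morc1, a germline chromatin ATPase, at 39.08, 43.88 and 37.82 FPKM in WT and 94.52, 98.64 and 95.39 in Max-KO (log2 difference 1.24 ± 0.07 SE; limma adjusted p = 1.06e-05). The neighbour was thus higher in all Max-KO libraries with a larger estimate than Dppa2 or Dppa4, a difference that was not tested.

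Around Dppa3, 8 of 10 neighbours met it, 5 called higher and 1 lower. The gene that fell was Gdf3, a TGF-beta family ligand 16.3 kb from Dppa3, at 67.11, 62.37 and 72.46 FPKM in WT and 57.62, 55.05 and 52.72 in Max-KO. Its log2 difference was -0.28 ± 0.07 (SE; limma adjusted p = 0.00977) as reported and -0.05 without a call after rescaling to TPM. Nanog, the pluripotency factor 77.2 kb to the other side, was at 179.25, 185.61 and 184.74 FPKM in WT and 303.45, 247.75 and 247.49 in Max-KO (log2 difference 0.53). Rimklb, Mfap5, Apobec1 and Necap1 were the other genes called higher. Slc2a3 (0.16) and Foxj2 (0.02) were not called as reported. Slc2a3 was called higher with TPM (0.39) and quantile normalization (0.44), and was -0.09, without a call, under median-ratio scaling. The calls of Necap1 (0.13) and Apobec1 (0.86) were lost under median-ratio scaling, and those of Mfap5 (0.08) and Apobec1 (0.63) under quantile normalization. The Apobec1 call (1.05, limma adjusted p = 0.0411) was also lost without WT replicate 2 (0.69), WT replicate 3 (1.21), Max-KO replicate 1 (0.92) or Max-KO replicate 2 (0.90), with the replicate block (limma adjusted p = 0.07) and with no filter on low values (limma adjusted p = 0.0707).

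Around Dppa5a, 8 of 16 neighbours met it, 4 called higher and 2 lower. Ooep, a KH-domain gene of the subcortical maternal complex 7.9 kb away, was at 21.26, 22.34 and 22.81 FPKM in WT and 45.92, 43.18 and 46.43 in Max-KO (log2 difference 1.00 ± 0.06 SE; limma adjusted p = 1.58e-05). All its Max-KO values were above all WT values, a larger fitted change than that of Dppa5a, though this difference was not tested. Ddx43, an RNA helicase gene, went up by 2.05, with 3.02 ± 0.826 FPKM in WT and 15.5 ± 0.851 in Max-KO libraries (SD, n = 3). Slc17a5 (1.00) and Cd109 (0.89) were the other genes higher. The genes lower were Gsta4 (-0.56) and Eef1a1 (-0.54), and Eef1a1 lost its call under quantile normalization (-0.30). Ick (-0.07) and Mto1 (-0.04) were not called as reported but were called lower under median-ratio scaling (-0.29 and -0.27) and quantile normalization (-0.45 and -0.32). Under median-ratio scaling 4 neighbours were thus higher and 4 lower, where 4501 of the 14661 tested genes were called higher and 4971 lower.

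**Figure D4:**
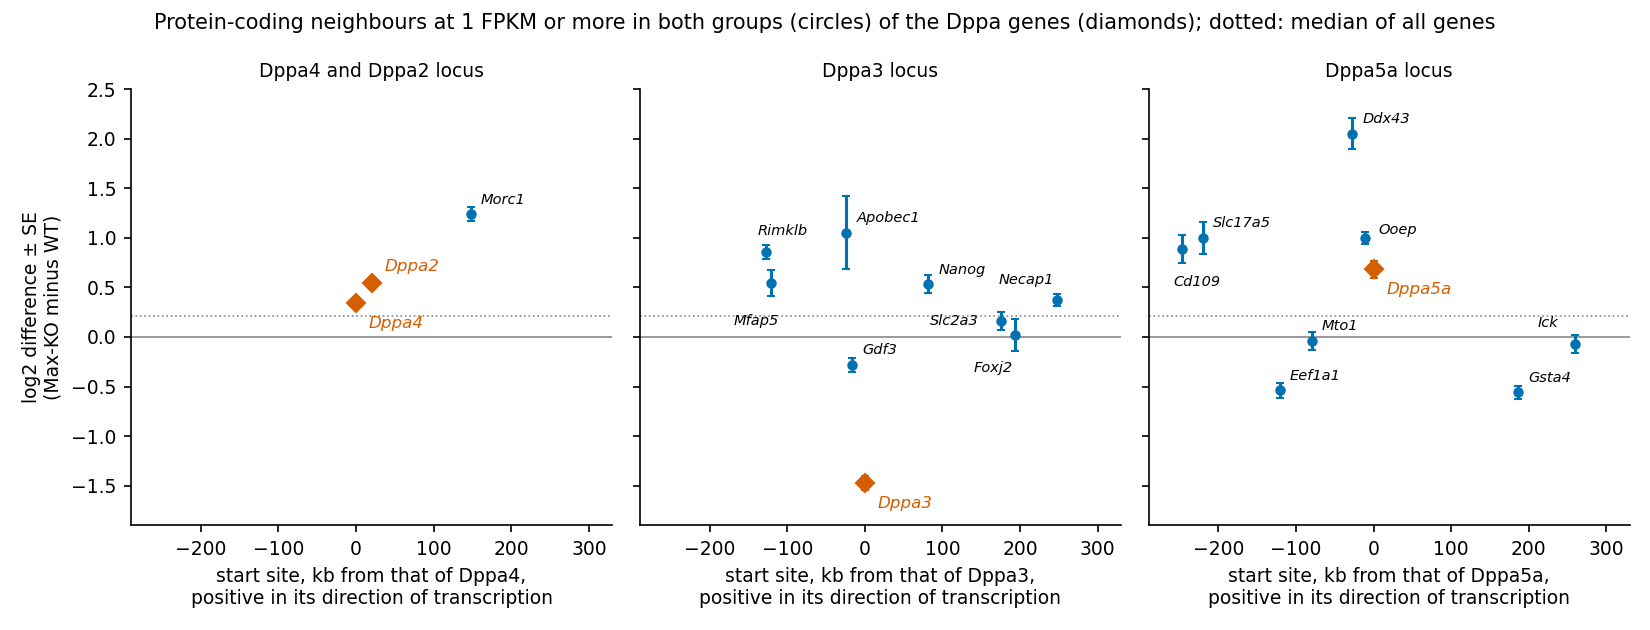
Log2 difference (Max-KO minus WT, ± SE) of protein-coding genes within 250 kb that had at least 1 FPKM in both groups (circles) against the distance of their start site from that of the Dppa gene (diamonds), in kb, positive in its direction of transcription. At the Dppa3 locus the diamond at -1.47 lies below all 8 neighbours drawn, the lowest of which is Gdf3 at -0.28.

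DPPA2 and DPPA4 are known as activators of 2-cell-like and germline genes, and a list of 21 such genes was read from the same test. Of these, 17 were tested and all 17 were called higher, against 43% of all genes, with a median log2 difference of 2.33. Neither this count nor this median is support for the direction. Of the 17, 15 had under 1 FPKM in WT and were tested only because they were higher in Max-KO. Zscan4f, a 2-cell-like marker, was listed at 0, 0.03 and 0 FPKM in WT and at 28.46, 28.97 and 20.83 in Max-KO. Zscan4e, a close copy, was at 0.03, 0.01 and 0 in WT and 16.18, 16.14 and 10.19 in Max-KO. Members of the Zscan4, Usp17l, Tcstv and Tdpoz families share sequence, so their single values are uncertain. Syce1 and Mkrn3, named after their values were seen, were the only tested members at 1 FPKM or more in WT. Syce1, a synaptonemal complex gene, rose from 7.65 ± 1.18 to 50.8 ± 2.36 FPKM, and Mkrn3 rose from 3.18 ± 0.44 to 6 ± 0.106 FPKM (SD, n = 3).

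DPPA3 acts through UHRF1, and a wider list of genes of DNA methylation and of the histone mark H3K9 dimethylation was called in both directions. Of 12 members, all tested in both groups, 5 were called higher and 4 lower, beside 43% and 23.2% of all tested genes. Their median was 0.28, beside 0.21 for all genes. Uhrf1, the reader of hemimethylated DNA that DPPA3 binds, was at 125.73, 123.26 and 127.19 FPKM in WT and 99.69, 108.12 and 109.94 in Max-KO. Its log2 difference was -0.24 ± 0.05 (SE; limma adjusted p = 0.00621), and the call was lost both with TPM (-0.01) and with quantile normalization (-0.13). Dnmt1, the maintenance methyltransferase, was at 80.72, 80.35 and 79.2 FPKM in WT and 96.33, 96.82 and 95.39 in Max-KO, a log2 difference of 0.26 that was 0.01, with its call lost, under median-ratio scaling.

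Larger changes in the methylation list were in other enzymes. Dnmt3b, a de novo methyltransferase, was at 84.29, 86.15 and 86.1 FPKM in WT and 42, 44.72 and 32.64 in Max-KO, a log2 difference of -1.10 ± 0.11 (SE) with limma adjusted p = 1.55e-04. Dnmt3l, its catalytically inactive cofactor, was higher by 1.04 ± 0.07 (SE; limma adjusted p = 2.01e-05), with 407 ± 27.1 FPKM in WT (SD, n = 3) against 837 ± 35.6. Tet2 (1.01) and Tet3 (0.88), which oxidize methylcytosine, and Uhrf2 (0.58) were the other genes called higher. Tdg (-0.77) and Ehmt2 (-0.73) were the other genes called lower, and Dnmt3a (0.38), Tet1 (0.29) and Ehmt1 (-0.09) were not called; these 5 were named after their values were seen.

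Dppa3 is itself a marker of primordial germ cells, and genes known to be expressed with it there were called in both directions. Of 13 tested members of 14, 6 were called higher and 4 lower, beside 43% and 23.2% of all tested genes, with a median of 0.37. Of the genes called higher, 1 was tested only through Max-KO. Dazl, a germ cell RNA-binding protein, and Ddx4, a germline helicase, led the rises with log2 differences of 6.82 and 4.24. Ifitm1, also called fragilis2, went the way of Dppa3, at 519.16, 510.41 and 569.1 FPKM in WT and 145.09, 155.02 and 172.4 in Max-KO (log2 difference -1.75 ± 0.08 SE; limma adjusted p = 5.58e-06). Alpl, the tissue-nonspecific alkaline phosphatase used to stain these cells, fell from 66.5 ± 5.1 to 22.6 ± 3.19 FPKM, and Ifitm3, or fragilis, from 341 ± 22.2 to 136 ± 7.07 FPKM (SD, n = 3). The remaining gene called lower was Ifitm2 (-0.35). The remaining genes called higher were Prdm14 (1.19), Prdm1 (0.96), Dnd1 (0.71) and Sox17 (0.91), the last tested only through Max-KO. Sox17, also counted below as a primitive endoderm marker, was low and uneven. It was at 0.07, 0.14 and 0.25 FPKM in WT and 1.7, 1.76 and 0.36 in Max-KO (limma adjusted p = 0.0239). Ifitm2 and the remaining genes called higher were named after their values were seen.

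Few KH-domain relatives of DPPA5A or other genes of the subcortical maternal complex reached 1 FPKM in these cells. Of 10 genes of the KH-domain and subcortical maternal complex list, 4 were tested, 2 called higher and 1 lower, beside 43% and 23.2% of all tested genes, with a median of 0.20. Besides Ooep, Khdc3 was higher, at 23.6, 24.16 and 28.27 FPKM in WT and 39.95, 39.54 and 30.81 in Max-KO (log2 difference 0.51; limma adjusted p = 0.00711), and this call was lost under median-ratio scaling (0.27). Tle6 was lower, with a log2 difference of -0.61 (limma adjusted p = 0.0153), and stood at 18.8, 18.41 and 13.75 FPKM in WT and 13.35, 8.97 and 10.23 in Max-KO. The Tle6 call was lost after rescaling to TPM (-0.40) and without WT replicate 1 (-0.53), WT replicate 2 (-0.55), Max-KO replicate 2 (-0.49) or Max-KO replicate 3 (-0.58).

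Pluripotency regulators, with which the Dppa genes are commonly listed, were read in the same way. Of 20 members, all tested in both groups, 14 were called higher and 3 lower, beside 43% and 23.2% of all tested genes. Under median-ratio scaling, where 4501 of the 14661 tested genes were called higher and 4971 lower, 10 members were higher and 3 lower. As reported, the median difference of the members was 0.47, beside 0.21 for all genes. The 4 with the largest rises were the transcription factor genes Tbx3 (2.64), Tfcp2l1 (1.53), Klf4 (1.39) and Nr5a2 (1.28). Utf1, a chromatin protein of embryonic stem cells, was at 255.53, 246.44 and 291.71 FPKM in WT and 155.94, 154.7 and 136.02 in Max-KO (-0.82). Pou5f1 was at 863.78, 865.45 and 943.18 FPKM in WT and 1029.94, 961.6 and 985.11 in Max-KO, and its difference of 0.16 missed the threshold (limma adjusted p = 0.0517). Its direction and call depended on the processing. The Pou5f1 difference was -0.10 under median-ratio scaling and -0.04 with factors from the tested genes, without a call, and it was called higher with TPM (0.39), quantile normalization (0.72), a pseudocount of 0.1 (0.16, limma adjusted p = 0.0498) and without WT replicate 3 (0.20).

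**Figure D5:**
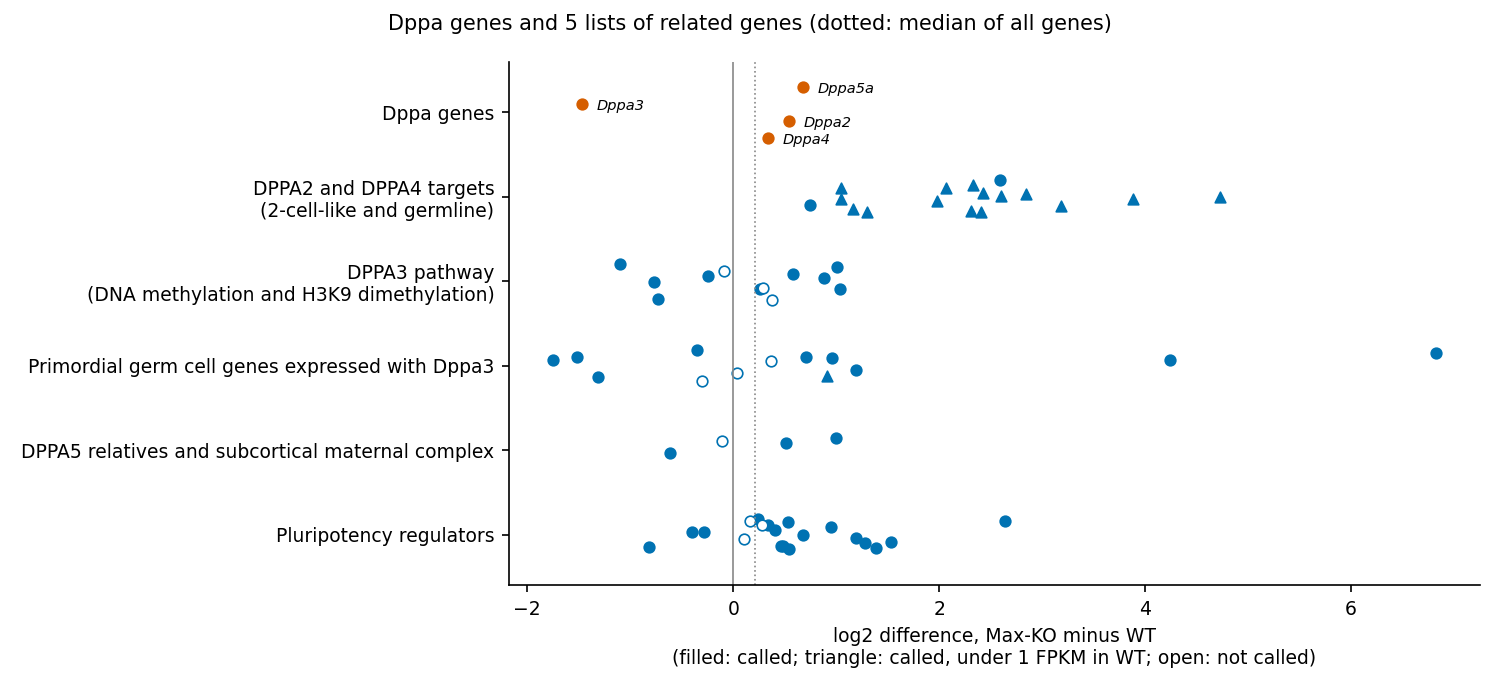
Log2 difference (Max-KO minus WT) of the Dppa genes and of every tested member of 5 lists of related genes; filled points passed the test, triangles passed it with a mean under 1 FPKM in WT, open points did not pass, and vertical spread has no meaning. Dppa3 at -1.47 lies in the range of Ifitm1, Alpl and Ifitm3, and the other 3 Dppa genes lie from 0.34 to 0.68.

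Levels of markers of some other cell types differed between the groups. Summed FPKM of 6 embryonic stem cell markers was 2172 to 2251 in WT and 2655 to 2740 in Max-KO, with 4 called higher, beside 43% of all tested genes, and all 6 detected in every library. For 7 primitive endoderm markers the sum was 1.97 to 2.42 in WT and 5.71 to 10.2 in Max-KO, and for 7 trophoblast markers 4.65 to 5.64 and 17 to 23.4. All 4 tested endoderm and all 6 tested trophoblast markers were called higher, but 3 and 4 of them were tested only through their Max-KO level, which fixed their direction. For 6 neural markers it was 128 to 149 in WT and 68.5 to 71.4 in Max-KO (4 of 4 tested called lower, beside 23.2% of all tested genes). Tubb3 made up most of this neural sum, with a mean FPKM of 117 for WT libraries against 60.5 for Max-KO libraries. The neural marker Sox1 was too low to be tested and went the other way. Its mean FPKM was 0.17 for WT libraries against 0.58 for Max-KO libraries, without overlap. Fibroblast markers summed to 7.98 to 8.14 and 7.76 to 10, with 1 of 2 tested called higher. Mesoderm markers summed to 2.2 to 2.53 and 1.97 to 2.45, and the 1 tested, kept only through its WT level, was called lower. No marker of any list was at 0 in all 6 libraries. The part of these differences in the levels of the Dppa genes was not tested. Max itself was at 41.6, 50.2 and 42.28 FPKM in WT and 35.79, 39.6 and 43.4 in Max-KO, with overlapping groups (log2 difference -0.17; limma adjusted p = 0.168). The Max difference was called lower under median-ratio scaling (-0.42, or -0.36 with factors from the tested genes) and was 0.06, without a call, with TPM. A value for the whole gene does not check the genotype, since a deleted exon would not be seen in it.

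The protein-coding genes whose values over the 6 libraries were most like those of each Dppa gene were taken by Euclidean distance between log2(FPKM + 1) values less their WT mean, among 7049 genes at a mean of 10 FPKM or more. For Dppa3 they were Mybbp1a (distance 0.11), Sssca1 (0.16) and Blvrb (0.17), with 114 genes within a distance of 0.5. Mybbp1a, for example, went from 370 ± 18.9 to 136 ± 4.72 FPKM (SD, n = 3). For Dppa4 they were Sugp1, Sart3 and Gna11, for Dppa2 they were Brpf1, Ints7 and Ctnnd1, and for Dppa5a they were Emc3, Tkfc and Dab2ip. Within a distance of 0.5 there were 1994 genes for Dppa4, 1446 for Dppa2 and 826 for Dppa5a, so each gene that rose had more genes near it than Dppa3 had.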

How the data were processed

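The authors deposited 1 FPKM value per gene and library, which is already corrected for transcript length and library size. FastQC, HISAT2 2.1.0, RSEM, DESeq 1.26.0 and build GRCm38.p6 are named in the submitters' processing notes, without roles or order. Symbols and coordinates came from GENCODE M21 (GRCm38), which held 55450 of 55536 Ensembl identifiers, and transcripts from the same release. Genes reaching a group mean of 1 FPKM in either genotype were kept. Their log2(FPKM + 1) values entered limma 3.58.1 (R 4.3.3), with trend, robust moderation and genotype as the only factor, tested 2-sided. Log2 differences on this scale understate changes of low genes. Depth was estimated from whole-number steps of low FPKM values at 21.15 to 28.4 M fragments per library, with 85.1% to 88.8% of values within 0.15 of a whole number, but the steps were fitted on those same values. On simulated Max-KO against WT data with 12784 genes, limma recovered 92% of 4-fold and 88% of 2-fold rises. It recovered 94% of falls to 0.5 and 98% of falls to 0.25, and called 13 of 12584 unchanged genes. The simulated spread came from the WT libraries only, and no shift of all genes was planted. No rise under 2-fold was planted either, so recovery of rises as small as those of Dppa2, Dppa4 and Dppa5a was not measured. The members and lists were chosen with earlier results of these data known. Named were the members, other Dppa genes, protein-coding neighbours within 250 kb (those at 1 FPKM or more in both groups, a limit set after seeing the data), up to 4 called genes per list with the largest change and 1 in the opposite direction, some regulators chosen by name, and the 3 genes most like each member. Alternatives were the pseudocount (0.1), the filter, scaling, limma settings, a replicate block and leaving out each library. Permutation tests used scipy 1.17.1 under Python 3.11.15.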

Additional observations from a re-analysis of the deposited data

How the results depend on the processing

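The calls of Dppa2, Dppa3 and Dppa5a and all directions held under the 14 alternatives. The Dppa4 rise (0.34) was 0.09 under median-ratio scaling (limma adjusted p = 0.245) and 0.15 (adjusted p = 0.0527) with factors from the tested genes only, an alternative chosen after seeing the data; it kept its call under the other 12. Leaving out each library in turn gave 0.31 to 0.36 for Dppa4, 0.51 to 0.58 for Dppa2, -1.51 to -1.42 for Dppa3 and 0.62 to 0.77 for Dppa5a. With the replicate block, 6203 genes were higher and 3282 lower, against 6300 and 3403, and no Dppa call changed. Over all tested genes, same-numbered libraries deviated together little (correlations of -0.000616, 0.016 and 0.0855). This cannot show whether same-numbered libraries were prepared together, which the labels do not say. For Dppa5a the SE was 0.05 with the replicate block and 0.09 without it. Of the list counts, only those of the KH-domain and subcortical maternal complex list moved by over 1.5 times. In that list 1 was higher under both median-ratio scalings, and 0 to 2 were lower across the alternatives. Depth limits Dppa5b and Dppa5c, with at most 40 estimated fragments, more than the 4 Dppa genes.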
